A study of Mus musculus with 12 samples.

Results

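H2-K1 and H2-D1, the heavy chain genes of the classical class I molecules, B2m, the gene of their shared light chain, and Nlrc5, a transcriptional activator of class I genes, were described in mouse aggregates given a cocktail of factors and in their day 7 controls. They were taken by gene name from the table of the cocktail experiment and are 4 of its 633 genes. That table was already limited by the authors: no gene in it has a false discovery rate (FDR) above 0.0099, and none has a log2 fold change smaller than 1.002 in size, between these same libraries. The 4 genes were also selected on the FPKM difference between cocktail and control, and their values on it are given as a description with no test. None of the 4 genes (0 of 4) is among the 546 genes of the separate table for co-cultured aggregates, and their levels in those libraries were not analysed here.

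The aggregates of both groups were made from the embryonic stem cell line mESC 129w2, at 3000 cells per well. Both received 2 ng/ml BMP4 on day 3, 25 ng/ml bFGF with 1 µM RA (retinoic acid) on day 4, and a change of plate on day 5. The control group is 3 libraries of aggregates titled day 7 with no treatment label, and the cocktail group is 3 libraries of aggregates cultured with the cocktail factor. The labels leave out what the cocktail contains, when it was added and the day on which those aggregates were collected, so an effect of the cocktail and one of stage cannot be told apart. The labels do not say whether the 3 libraries of a group came from separate cultures.

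Classical class I molecules are heterodimers of a heavy chain anchored in the membrane and beta-2 microglobulin, and they carry peptides from the cell's own proteins to the surface, where CD8 T cells read them. H2-K1 and H2-D1 are highly polymorphic heavy chain genes of the mouse major histocompatibility complex, while B2m varies far less and also pairs with the non-classical heavy chains. Nlrc5 belongs to the NLR protein family and acts in the nucleus as the class I counterpart of Ciita, the class II transactivator. It is not known to bind DNA by itself and works with RFX, CREB/ATF and NF-Y factors assembled on the SXY module of class I and B2m promoters. Embryonic stem cells and early derivatives are known for low class I expression, which interferons raise.

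On chromosome 17, H2-K1 spans 33996017 to 34000347 (minus strand) and H2-D1 spans 35262730 to 35267499 (plus strand), in GRCm38 with GENCODE M21. B2m lies on chromosome 2 at 122147686 to 122153083 and Nlrc5 on chromosome 8 at 94434356 to 94527272, both on the plus strand. The heavy chains are thus in the major histocompatibility complex, and the light chain and the activator are each on another chromosome. The promoter sequences of the 3 structural genes are shown because the elements that Nlrc5 and its partners are known to use can be read in them. They are the 250 bases before the RefSeq start (GRCm38.p6), 5′ to 3′ on the strand of the gene, and of the 2 starts of H2-K1 the one farther upstream was used. The GENCODE gene record of H2-D1 begins upstream of that RefSeq start, so its window lies inside the GENCODE gene. Capitals mark matches, on either strand, to the kappa B element of enhancer A (its letters are the first run of capitals in H2-K1 and in H2-D1), the core of an interferon-stimulated response element (ISRE; GAAA, any 2 bases, GAAA), TTCNNNGAA (a gamma-activated site, GAS), TGACG (part of the X2 box) and ATTGG (the Y box, a reversed CCAAT), with N for any base. No match overlapped another. Only exact matches to these letters were looked for, so other forms of an element may stand unmarked in any of the windows.
H2-K1: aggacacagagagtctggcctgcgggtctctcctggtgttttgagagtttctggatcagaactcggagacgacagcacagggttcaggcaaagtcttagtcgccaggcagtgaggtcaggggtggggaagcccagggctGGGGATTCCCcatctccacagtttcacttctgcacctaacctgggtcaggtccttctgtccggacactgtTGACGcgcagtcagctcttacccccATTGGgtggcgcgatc
H2-D1: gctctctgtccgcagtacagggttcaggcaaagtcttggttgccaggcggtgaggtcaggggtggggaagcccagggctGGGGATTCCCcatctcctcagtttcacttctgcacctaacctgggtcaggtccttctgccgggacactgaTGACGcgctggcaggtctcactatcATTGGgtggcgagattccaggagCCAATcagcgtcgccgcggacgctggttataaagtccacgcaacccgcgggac
B2m: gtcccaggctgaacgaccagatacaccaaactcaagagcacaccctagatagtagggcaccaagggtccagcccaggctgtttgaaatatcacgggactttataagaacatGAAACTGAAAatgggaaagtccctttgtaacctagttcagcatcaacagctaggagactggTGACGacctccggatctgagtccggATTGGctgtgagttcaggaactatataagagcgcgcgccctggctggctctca
These windows are on chromosome 17 at 34000348 to 34000597 (minus strand), on chromosome 17 at 35262844 to 35263093 (plus strand) and on chromosome 2 at 122147437 to 122147686 (plus strand). No promoter of Nlrc5 is shown.

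The heavy chain promoters held the same elements in the same order. In H2-K1 the kappa B element began at position -111 from the start, the X2 match at -41 and the Y box at -16. In H2-D1 the same matches began at -171, -101 and -76, and a second Y box on the other strand ended at -49. Positions depend on the start chosen, of which H2-K1 has 2. The H2-K1 window ends soon after its Y box (-16 to -12), too early to show a match as far beyond it. The step from kappa B to X2 was 70 bases in both genes. Aligned on the kappa B element without gaps, the windows were identical at 166 of 190 bases (87.4%). The kappa B letters were present in 0.0814% of the 27025 gene promoters of the same length.

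B2m had no exact match to the kappa B letters. It held the one exact match to the ISRE letters in the 3 windows, GAAACTGAAA at -139 to -130, a pattern present in 3.04% of promoters. Its X2 match began at -78 and its Y box at -53. The X2 match stood 25 bases before the Y box in B2m, H2-K1 and H2-D1 alike. TGACG alone was present in 17.9% of promoters and ATTGG in 34.5%, while both at this spacing (20 bases between them, a pattern defined after the matches were seen) were present in 25 of 27025 promoters (0.0925%). H2-K1, H2-D1 and B2m gave the pattern and so hold it by construction. Without them, it was present in 22 of 27022 promoters (0.0814%) and in 1 of the 236 genes that the authors list as up and that have a promoter entry, the non-classical heavy chain gene H2-M3. It was in 0 of 187 listed as down. The GAS letters, present in 7.18% of promoters, matched in none of the 3 windows.

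With the cocktail, H2-K1, H2-D1 and B2m became the most abundant mRNAs per length among all listed genes, and Nlrc5 went from near absence to a moderate level. Levels are the authors' deposited FPKM, read fragments relative to transcript length and to the size of the library. H2-K1, a peptide-presenting heavy chain, was at 60.7, 56.7 and 52.5 FPKM in the control libraries and at 1310.4, 1422.0 and 1343.8 FPKM in the cocktail libraries. The lowest cocktail value was 21.6 times the highest control value, so the groups were far apart. The mean went from 56.6 ± 4.10 to 1358.8 ± 57.3 FPKM (SD, n = 3 each), a 24.0-fold difference.

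H2-D1, the other classical heavy chain, was at 36.9, 38.7 and 33.2 FPKM in the controls and at 726.8, 821.4 and 771.3 FPKM with the cocktail. All cocktail libraries were at least 18.8 times the highest control. Its mean was 36.3 ± 2.81 in the controls and 773.2 ± 47.3 FPKM with the cocktail (SD, n = 3 each), 21.3-fold higher. B2m, the invariant light chain that heavy chains need to reach the surface, was at 32.1, 31.0 and 32.7 FPKM in the controls and at 654.2, 729.6 and 659.0 FPKM with the cocktail. Here too the groups were separate, and the controls were the least scattered of any member, with an SD that was 2.73% of their mean. The fold difference of the means was 21.3.

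Nlrc5, the activator, was listed at 0 in 2 of the 3 control libraries and at 0.0341 FPKM in the other. In the cocktail libraries it was at 36.5, 37.2 and 35.8 FPKM, a mean of 36.5 ± 0.674 (SD, n = 3). The cocktail libraries differed from each other by little, with an SD that was 1.85% of the mean, the smallest relative spread of the 4 genes in that group. No fold change is given here, because 2 controls are at 0. The authors' deposited table gives a log2 fold change of 11.57 with an FDR of 6.79e-10 for Nlrc5. By log2 fold change, which here rests on controls at or near 0, Nlrc5 ranked 14 in the list. By gain in FPKM it ranked 43. In the authors' deposited table the log2 fold changes are 4.62 for H2-K1, 4.45 for B2m and 4.44 for H2-D1, each with an FDR listed as 0, against a median of 1.93 over the genes listed as up. Each of the 4 genes was above every control in every cocktail library, as were 57.2% of the 633 listed genes. Because the RNA is from whole aggregates, more cells that express these genes and more RNA per cell cannot be told apart.

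**Figure D1:**
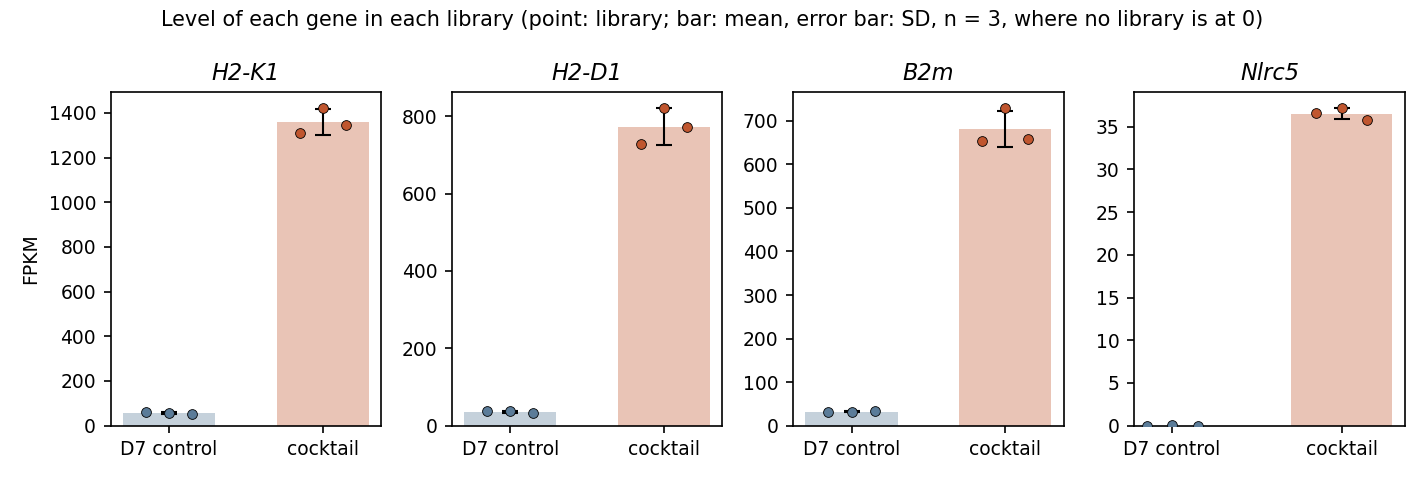
FPKM of H2-K1, H2-D1, B2m and Nlrc5 in the 3 day 7 control and the 3 cocktail libraries, each panel on its own linear axis from 0. Points are libraries, and bars and error bars are the mean and SD where no library is at 0. H2-K1 goes from 56.6 to 1358.8, H2-D1 from 36.3 to 773.2 and B2m from 31.9 to 681.0, and Nlrc5 is at or near 0 in the controls and at 35.8 to 37.2 with the cocktail.

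Among the cocktail libraries, the second one was the highest for all 4 genes. The summed FPKM of the other listed genes was also highest in that library, at 8704 against 8498 and 8578. The 4 genes made up their largest share of the total there. In the controls the libraries were ordered differently for different genes: the third was the lowest for H2-K1 and H2-D1 and the highest for B2m.

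H2-K1 ranked 8 of 633 by mean FPKM in the controls and 1 with the cocktail. H2-D1 went from rank 18 to 2, B2m from 23 to 3 and Nlrc5 from 598 to 51. The next gene by level with the cocktail was the interferon-inducible GTPase Igtp at 366.3 ± 2.25 FPKM (SD, n = 3). H2-K1 gained 1302 FPKM between group means, H2-D1 gained 737 and B2m gained 649, the 3 largest gains in the table. The 4 genes made up 3.74% to 3.88% of the summed FPKM of the listed genes in the control libraries and 24.3% to 25.7% in the cocktail libraries. H2-K1 alone made up 1.66% to 1.77% and 11.7% to 12.1%. These shares are of the listed genes and not of the transcriptome.

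**Figure D2:**
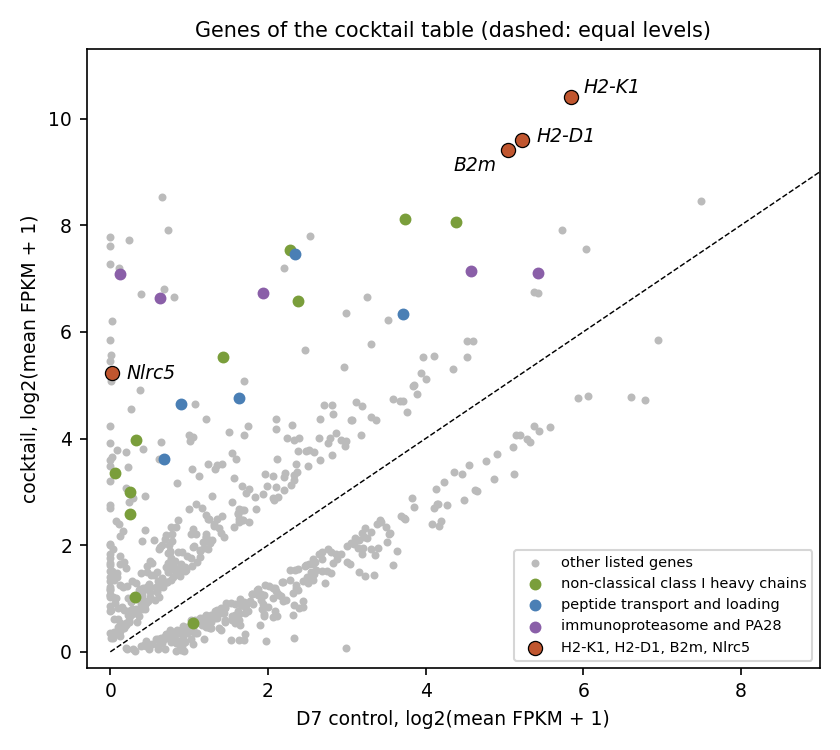
Mean level of each of the 633 listed genes in the cocktail libraries against the day 7 controls, both as log2(mean FPKM + 1), with the dashed line at equal levels and non-classical heavy chain, peptide transport and loading, and immunoproteasome genes in colour. H2-K1, H2-D1 and B2m stand above all other listed genes with the cocktail (ranks 1, 2 and 3), and Nlrc5 lies at the left edge with genes that are near 0 in the controls. Away from the origin, the empty band along the dashed line is where genes below the authors' fold threshold would lie. Near the origin, adding 1 draws weakly expressed listed genes towards the line, such as Ciita (means of 0 and 0.273 FPKM).

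The order of levels in the controls was H2-K1, H2-D1, B2m and Nlrc5. H2-K1 lay above H2-D1 in every control. H2-D1 and B2m were close, at 33.2 to 38.7 and 31.0 to 32.7 FPKM, and did not overlap. With the cocktail the order of the means was the same. There the ranges of H2-D1 (726.8 to 821.4) and B2m (654.2 to 729.6) overlapped, although H2-D1 was above B2m within each library.

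The balance between the chains changed little compared with the size of the rise. The ratio of H2-K1 to B2m, in FPKM within a library, was 1.89, 1.83 and 1.61 in the controls and 2.00, 1.95 and 2.04 with the cocktail. The groups did not overlap, but the means, 1.78 ± 0.151 and 2.00 ± 0.0453 (SD, n = 3), differ by a factor of 1.12. The ratio of H2-D1 to B2m was 1.15, 1.25 and 1.02 in the controls and 1.11, 1.13 and 1.17 with the cocktail, so the groups overlapped.

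The ratio of H2-K1 to H2-D1 was 1.64, 1.47 and 1.58 in the controls and 1.80, 1.73 and 1.74 with the cocktail. All cocktail values were above all control values, and the means differ by a factor of 1.13. For both heavy chains summed, the ratio to B2m was 2.92 ± 0.255 in the controls and 3.13 ± 0.0693 with the cocktail (SD, n = 3), with overlapping groups. These ratios come from the contrast that chose the genes and were not tested. In the cocktail libraries there were 2.61 to 2.79 FPKM of Nlrc5 for every 100 of H2-K1.

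**Figure D3:**
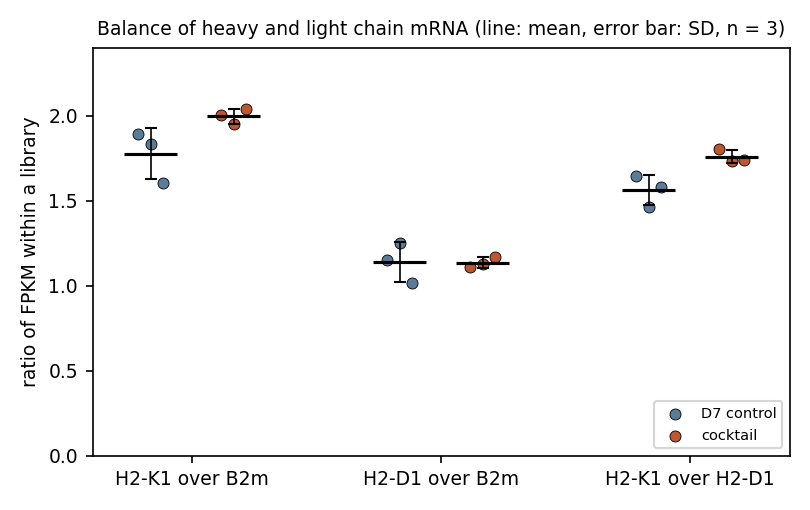
Ratio of FPKM between class I chains within each library, for 3 day 7 control and 3 cocktail libraries, on a linear axis from 0. Points are libraries, lines are means and error bars are SD. H2-K1 over B2m goes from 1.78 to 2.00 and H2-K1 over H2-D1 from 1.56 to 1.76, while H2-D1 over B2m is at 1.14 in both groups.

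How well reads can be told apart differs between the members. In the longest protein-coding transcript of each gene in GENCODE M21, every stretch of 50 bases was looked up in the transcripts of all other genes. For H2-K1 8.79% of the stretches were found elsewhere, most often in H2-D1 (6.94%). For H2-D1 14.3% were found elsewhere, most often in the non-classical gene H2-Q1 (7.40%). For B2m and Nlrc5 the share was 0%. How the authors counted reads that fit several class I genes is not stated, and the reference is from C57BL/6J whereas the cells are of line 129w2. The levels of H2-K1 and H2-D1, the ratio between them, and their comparisons with the non-classical genes are uncertain to that extent.

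The log2(FPKM + 1) scale shrinks differences of weakly expressed genes. On it the differences between groups were 4.56 for H2-K1 (SE 0.07), 4.38 for H2-D1 (SE 0.07), 4.37 for B2m (SE 0.06) and 5.21 for Nlrc5 (SE 0.08). Under quantile normalization of the listed genes they were 2.02, 2.06, 2.12 and 4.35, beside a shift of -0.58 in the median of all tested genes. The values come from a limma fit over the 530 listed genes with a mean of at least 1 FPKM in either group. Nlrc5 entered the fit through the cocktail group only. All 4 members passed at an adjusted p under 0.05, which says nothing about them, since 100% of the tested genes did, 59.2% of them higher and 40.8% lower. The median difference over all tested genes was 0.79.

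The genes whose profile lay nearest to that of a member were mostly other class I genes and interferon-inducible genes. Nearness was the Euclidean distance between log2(FPKM + 1) values over the 6 libraries, each gene centred on its control mean, and it carries no test. Nearest to B2m were H2-Q7, a non-classical heavy chain gene (12.4 ± 0.542 to 277.0 ± 3.25 FPKM, SD, n = 3), H2-D1 and Zbp1, a nucleic acid sensor listed at 0 in all controls. Nearest to H2-D1 were B2m, H2-Q7 and Gbp9, a guanylate-binding protein gene. Gbp9, H2-D1 and B2m were nearest to H2-K1. Gbp9 was at 0.294 ± 0.0779 FPKM in the controls and 29.2 ± 1.23 with the cocktail (SD, n = 3 each). Nearness on this scale is thus not an equal fold difference. Nearest to Nlrc5 were Gbp10, another guanylate-binding protein gene, and H2-Q6, a non-classical heavy chain gene. H2-Q6 was at 3.85 ± 0.336 FPKM in the controls (SD, n = 3), where Nlrc5 was at or near 0. With a pseudocount of 0.1 in place of 1, only 5 of the 12 neighbours (3 for each member) were again among the 3 nearest, in any order, and none of those of H2-K1. H2-Q7 was so for B2m and H2-D1, B2m and H2-D1 were so for each other, and Gbp10 was so for Nlrc5.

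The rest of the class I pathway is given from lists of genes, with counts that describe a table already limited to changed genes. Over all 530 tested genes 100% passed the threshold and 59.2% were higher. Of all protein-coding genes 2.67% are in the table. Of 26 genes for non-classical class I and class I-like chains, 23 were matched by symbol. H2-Q8, H2-Q9 and H2-T9 had no match and could not be looked up. Of the 23, 11 are in the table, 10 of them higher with the cocktail and 1 lower, with a median log2 difference of 3.64. Under quantile normalization of the listed genes 9 were higher, since Mr1, a class I-like gene, went from 0.70 to 0.26 (limma adjusted p = 0.0552). H2-Q4 was at 19.9 ± 0.911 FPKM in the controls and 265.7 ± 5.76 with the cocktail, and H2-Q6 at 3.85 ± 0.336 and 185.4 ± 7.44. H2-T22 was at 4.19 ± 0.649 and 95.2 ± 1.78 (SD, n = 3 each). The 1 lower gene, Hfe, which was named after its value was seen and is known for iron regulation, was at 1.07 ± 0.131 and 0.455 ± 0.0575 FPKM.

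H2-K1 and H2-D1 together made up 67.5% to 69.3% of the FPKM summed over them and the 9 H2 genes of that list that are in the table in the controls, and 69.0% to 71.2% with the cocktail, so the ranges overlapped. H2-Bl, another class I heavy chain gene of the table, is not in that list and was added after its values were seen. It was at 13.4 ± 1.26 FPKM in the controls and 31.1 ± 2.90 with the cocktail (SD, n = 3 each), a smaller relative difference than that of H2-K1 or H2-D1. With H2-Bl in the sum the share of H2-K1 and H2-D1 was 61.4% to 63.4% in the controls and 68.4% to 70.4% with the cocktail, and the ranges did not overlap. Whether the balance between classical and other heavy chains differed therefore depends on whether H2-Bl is counted. These shares may also depend on how reads that fit several class I genes were counted, which is not stated.

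Of 8 genes for peptide transport and loading, 5 are in the table and all 5 were higher, with a median log2 difference of 3.13. Tap1, a subunit of the transporter that brings peptides to class I molecules, was at 4.07 ± 0.269 FPKM in the controls and 175.4 ± 2.33 with the cocktail. Its partner Tap2 was at 0.855 ± 0.159 and 23.9 ± 1.10. Tapbp, tapasin, which holds class I molecules at the transporter, was at 12.1 ± 0.900 and 80.2 ± 3.90 FPKM, and Erap1, which trims peptides, at 2.10 ± 0.0915 and 26.2 ± 1.66 (SD, n = 3 each). All 5 genes for the immunoproteasome and its PA28 activator were in the table and higher, with a median log2 difference of 4.81. Psme1, a PA28 subunit, was at 42.1 ± 3.25 and 135.7 ± 5.79 FPKM, the smallest difference of that list (1.67), and under quantile normalization of the listed genes its direction flips (-0.41). Psme2, its partner in that activator, was at 22.9 ± 1.53 and 140.2 ± 7.85. Psmb10, a catalytic subunit, was at 2.84 ± 0.822 and 105.4 ± 5.62 (SD, n = 3 each). Psmb8, another catalytic subunit, was at 0.127, 0.133 and 0 FPKM in the controls and at 134.2 ± 6.11 with the cocktail.

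Among 13 IRF, STAT and NF-kB factors, 7 are in the table, all of them IRF or STAT genes. The 6 of these that could be tested were higher, with a median log2 difference of 2.33. The NF-kB genes of the list (Nfkb1, Nfkb2, Rela, Relb and Rel) are not in the table, and their levels were not analysed here. Irf1, which binds ISREs, was at 3.62 ± 0.509 and 145.5 ± 2.81 FPKM, and Irf8 at 0.753 ± 0.0257 and 99.4 ± 4.24. Stat3 was at 6.79 ± 0.501 and 39.3 ± 2.56 (SD, n = 3 each). Of the 8 SXY factors through which Nlrc5 works (the RFX subunits, CREB1, ATF1 and the NF-Y subunits), 0 are in the table. Of 13 interferons, their receptors and kinases, 0 are in the table either. The levels of those 21 genes were not analysed here.

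Class II genes were also listed but at far lower levels. Ciita, the class II counterpart of Nlrc5, was listed at 0 in all 3 controls and at 0.252, 0.213 and 0.355 FPKM with the cocktail. In each cocktail library Nlrc5 was above 35 FPKM, so the NLR activators differ widely in level. The class II chain H2-Eb1 was at 0.384, 0.432 and 0.263 FPKM in the controls and at 4.00, 5.48 and 2.21 with the cocktail. Cd74, the invariant chain, was at 0.445 ± 0.0417 and 2.18 ± 0.645 FPKM (SD, n = 3). Of 10 class II genes in the list, these 3 are in the table. Of 7 other NLR family genes, Nod1, a sensor of bacterial cell wall fragments, is in the table and was higher by 0.72 on the log2(FPKM + 1) scale.

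**Figure D4:**
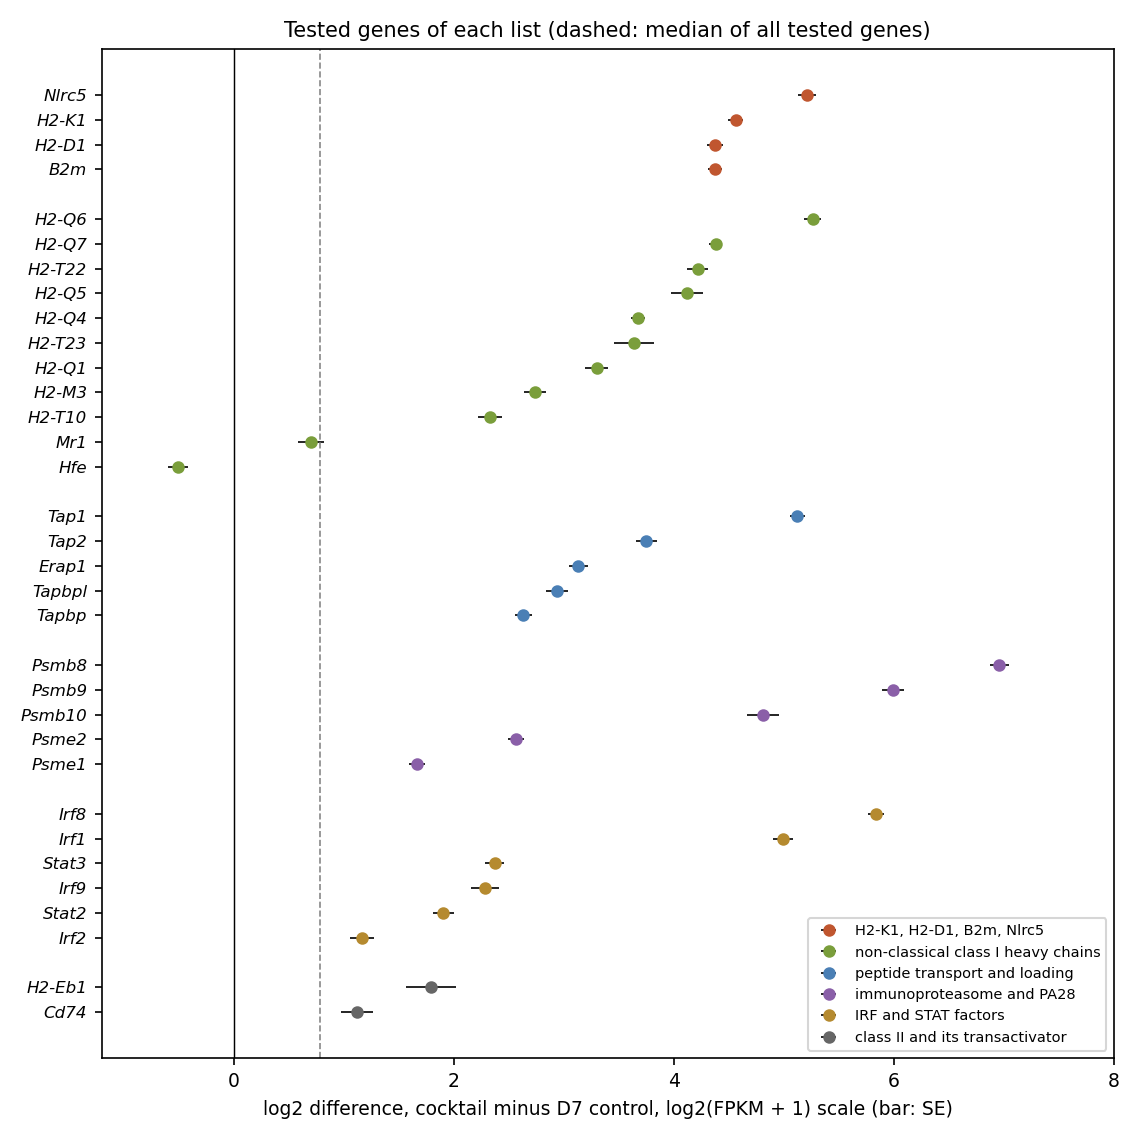
Log2 difference, cocktail minus day 7 control, on the log2(FPKM + 1) scale for each tested gene of 6 lists, with SE as horizontal bars. The dashed line is the median of all 530 tested genes (0.79). H2-K1, H2-D1 and B2m lie between 4.37 and 4.56 and Nlrc5 at 5.21, Hfe is the one gene below 0, and the class II genes lie at 1.12 and 1.79. Under quantile normalization Psme1 falls below 0.

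Markers of leukocytes, pluripotent cells, oral epithelium and salivary gland, and endothelium were looked for. Of 13 leukocyte markers, 0 are in the table, nor are any of 6 pluripotency markers or of 13 markers of oral epithelium and salivary gland. A gene can be missing from this table for want of a change, so their levels, and the identity of the cells, were not checked here. Of 5 endothelial markers, Kdr is in the table and fell with the cocktail from 4.97 ± 0.696 to 1.56 ± 0.173 FPKM (SD, n = 3). Its part in the values of the class I genes was not tested.

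Position was shared by part of the pathway. H2-K1 and H2-D1 bound a stretch of 1262 kb on chromosome 17 that holds 83 protein-coding genes, of which 6 (7.23%) are in the table, all listed as up. They are named for their position: Psmb9, Tap1, Psmb8, Tap2, H2-Eb1 and the complement gene C2. Over the genome 587 of 21951 protein-coding genes (2.67%) are in the table, 332 as up and 255 as down. The direct neighbours of the members are mostly not in the table, which also holds for protein-coding genes over the genome (2.67% listed). On either side of H2-K1 the next 2 protein-coding genes (Vps52 and Rps18, Ring1 and H2-Ke6) are not listed, and of the next 2 on either side of H2-D1 only H2-Q1 is, as up. Within 500 kb of H2-K1 6 of 47 protein-coding genes are listed and within 500 kb of H2-D1 5 of 64, all as up. These counts repeat genes named above: Psmb9, Tap1, Psmb8, Tap2 and H2-Eb1 lie in the H2-K1 window and C2 in the H2-D1 window. Within 500 kb of B2m 0 of 19 protein-coding genes are listed, and within 500 kb of Nlrc5 1 of 28 is, as down.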

How the data were processed

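Poly(A) RNA libraries of the cocktail experiment were analysed, 3 per group. The submitters' processing notes name HISAT2 and GRCm38. No source used here says which program or annotation gave the deposited values. Per the file headers, the authors deposited FPKM per library, a log2 fold change and an adjusted p-value (FDR) for each listed gene. One broken line without values was left out. Column names give the group and no sample, and their numbers match no sample title. One measure per library was used, the FPKM columns of 3 libraries a group. The 6 count columns beside them were not used, although the design had named a count test; in all 36 columns of per-sample values were not used. Library depth was therefore not analysed here, and no counting interval is given. Symbols came from GENCODE M21 (594 of 633 genes matched).

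Differences were fitted by limma 3.58.1 with trend, in R 4.3.3, on log2(FPKM + 1) for listed genes whose mean reached 1 FPKM in one group or both, with Benjamini-Hochberg adjustment over 530 genes and a threshold of 0.05. The spread between libraries behind these p-values may be technical. The fit was tested on simulated data. The members and lists were chosen with earlier results of these data known. Named genes were the members, the 3 nearest profiles of each, and from each list at most the 4 genes with the highest mean FPKM. One gene that falls under this rule is not reported here. Promoters are RefSeq's (GRCm38.p6), with entries for 3 of 4 members. Alternatives were another pseudocount, other filters, quantile normalization and leaving out each library.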

Additional observations from a re-analysis of the deposited data

How the results depend on the processing

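The differences of the 4 genes kept their sign in the 10 alternatives run, which is no independent support, since the table was selected on this contrast. Quantile normalization of the listed genes, chosen after seeing the data, moved the median difference of all tested genes by -0.58 on the log2 scale and gave 2.02 for H2-K1, 2.06 for H2-D1, 2.12 for B2m and 4.35 for Nlrc5; it forces libraries to one distribution although these genes were selected for change. With a pseudocount of 0.1 Nlrc5 was at 8.38, because its controls are near 0. Leaving out 1 library at a time gave 4.51 to 4.61 for H2-K1, 4.32 to 4.42 for H2-D1, 4.32 to 4.40 for B2m and 5.20 to 5.23 for Nlrc5. The count of listed genes called was 526 to 532 in those fits. With a filter at a mean of 5 FPKM, also chosen after seeing the data, 252 genes were called, 168 higher and 84 lower, since fewer genes were tested. Of the 12 nearest neighbours, 5 were named again with a pseudocount of 0.1. With H2-Bl counted, also chosen after seeing the data, the mean share of H2-K1 and H2-D1 among listed class I heavy chains in the controls was 62.4% in place of 68.5%, and with the cocktail 69.5% in place of 70.2%. Count-based alternatives (edgeR with other library sizes, DESeq2, counts per kilobase) were not run, because the count columns were not used. No paired analysis was possible because the labels number the controls 4 to 6 and the cocktail samples 1 to 3, and nothing ties equal column numbers to a pair.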
